A study of Schizosaccharomyces pombe with 6 samples.

Results

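Fission yeast (Schizosaccharomyces pombe) encodes its cytosolic ribosomal proteins in genes whose symbols begin with rpl, for the large 60S subunit, or rps, for the small 40S subunit. The genes described here were the protein-coding genes of the RefSeq annotation (assembly ASM294v3) with such a symbol followed by a digit that lay more than 150 kb from a centromere and more than 100 kb from a chromosome end. These criteria kept 114 of 131 nuclear genes, 67 of the large and 47 of the small subunit, among 5108 protein-coding genes with a value on every array. Of the 114 genes, 54 lay on chromosome I, 39 on II and 21 on III, and the annotation names the products of all but rpl44 as 40S or 60S ribosomal proteins. The other 17 genes lay inside the limits, 15 near a centromere and 2 near an end.

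Chromatin immunoprecipitation (ChIP) DNA was hybridised to 6 two-colour tiling arrays with Cy5 on the ChIP DNA and Cy3 on whole-cell extract DNA. Dimethylated lysine 9 of histone H3 (H3K9me2) was measured once in wild type and once in pds5D, a deletion of pds5. Pds5-GFP, the Pds5 protein fused to green fluorescent protein, was mapped on 2 arrays of wild type, 1 of swi6D and 1 of clr4D, deletions of swi6 and clr4. All cells were in exponential growth in rich medium (YEA) at 30 °C and were fixed in 3% paraformaldehyde. Cells for the Pds5-GFP arrays were also held at 18 °C for 2 h before fixation, and DMA was added during it. The value of a gene is the mean over the probes in the gene and 300 bp on each side of log2 ChIP over extract, centred on the median of the array, so 0 is the typical probe of that array. The labels give neither how the GFP tag was introduced nor whether separate cultures gave the wild-type pair.

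Ribosomal protein genes are among the most heavily transcribed genes of growing yeast, and most of the proteins are encoded by a pair of near-identical paralogues at distant places. Pds5 binds cohesin, the ring that keeps sister chromatids paired, and cohesin on yeast chromosome arms is known to gather between convergent genes. H3K9me2 is written by Clr4 and bound by Swi6, and its main domains are the centromeres, the chromosome ends and the silent mating-type region.

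The deleted genes were missing from the extract of the arrays labelled so, with medians of -6.99 for pds5, -6.85 for swi6 and -6.55 for clr4. Between 98.4% and 99.98% of each array's spots exceeded background well in both colours. The H3K9me2 arrays shared a slide, the second wild-type Pds5-GFP array shared a slide with swi6D, and clr4D was alone on its slide, so for clr4D slide and genotype cannot be told apart. In 5 pairs of ribosomal protein genes (10 genes) the windows shared probes. A window held 3 to 11 probes, with a median of 4. Among the 507 probes of these windows, 17.0% carried a name suffix, against 1.39% in the windows of the 4524 genes that met the same position limits (called arm genes below). Of the probes with the suffix f or m, 88.4% and 96.3% had a second copy in the genome, taken as at least 50 of 60 bases matching elsewhere, against 0.614% of the other probes. In 70 of the 86 suffixed probes of ribosomal protein genes the best second match lay in another gene of the same family, so signal there may come from either paralogue.

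Most of these genes carry a short promoter element. The HomolD box, searched as CAGTCACA on either strand in the 250 bases before the annotated gene start, was present in 72 of 114 promoters (63.2%), against 0.975% of the 4410 other arm genes and 2.62% of all 5107 genes with a full window. The HomolE box, searched as a direct tandem repeat of ACCCT on either strand, was present in 35 promoters (30.7%), against 0.431% of other arm genes and 1.21% of all genes. Both boxes stood in 21 promoters. The first base of the HomolD match lay 43 to 74 bp before the gene start (median 51 over 74 matches), and that of HomolE lay 61 to 86 bp before it (median 70). Of 50 genes for mitochondrial ribosomal proteins, 0 had a HomolD match and 1 had a HomolE match. The promoters printed are those of the genes with the highest and lowest wild-type Pds5-GFP level (rpl3002 and rpl3601) and of 4 of the 7 genes whose Pds5-GFP passed the test in a mutant (rps3001, rpl2101, rpl2102 and rpl901), shown for their HomolD match. They are written 5′ to 3′ in the direction of the gene, from RefSeq, with HomolD and HomolE matches in capitals. Their positions are chrI:5095880-5096129 (minus strand), chrIII:506890-507139 (minus), chrI:4890070-4890319 (plus), chrII:2503781-2504030 (minus), chrI:3400278-3400527 (plus) and chrI:2284229-2284478 (minus), in that order.
rpl3002: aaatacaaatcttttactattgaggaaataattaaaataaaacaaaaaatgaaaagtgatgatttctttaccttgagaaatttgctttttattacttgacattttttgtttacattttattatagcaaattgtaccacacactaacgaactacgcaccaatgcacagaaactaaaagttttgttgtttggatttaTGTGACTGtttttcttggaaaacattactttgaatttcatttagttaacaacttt
rpl3601: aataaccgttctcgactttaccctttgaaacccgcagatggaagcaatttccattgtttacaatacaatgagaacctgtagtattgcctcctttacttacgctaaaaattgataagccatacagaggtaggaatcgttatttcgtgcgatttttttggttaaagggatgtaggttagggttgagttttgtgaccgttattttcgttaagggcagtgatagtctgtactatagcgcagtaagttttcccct
rps3001: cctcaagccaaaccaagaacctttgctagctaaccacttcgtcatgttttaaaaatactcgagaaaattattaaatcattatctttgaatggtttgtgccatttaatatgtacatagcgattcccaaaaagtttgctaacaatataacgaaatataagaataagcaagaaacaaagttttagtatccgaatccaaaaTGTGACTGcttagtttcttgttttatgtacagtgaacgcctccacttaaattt
rpl2101: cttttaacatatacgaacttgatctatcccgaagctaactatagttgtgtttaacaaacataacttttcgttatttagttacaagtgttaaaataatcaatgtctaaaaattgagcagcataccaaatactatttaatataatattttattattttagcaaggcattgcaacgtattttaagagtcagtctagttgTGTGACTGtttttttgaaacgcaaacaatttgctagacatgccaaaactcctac
rpl2102: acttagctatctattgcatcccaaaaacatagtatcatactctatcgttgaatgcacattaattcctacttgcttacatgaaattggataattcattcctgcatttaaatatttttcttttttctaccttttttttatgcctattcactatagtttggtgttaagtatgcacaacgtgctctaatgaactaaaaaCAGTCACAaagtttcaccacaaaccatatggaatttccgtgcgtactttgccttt
rpl901: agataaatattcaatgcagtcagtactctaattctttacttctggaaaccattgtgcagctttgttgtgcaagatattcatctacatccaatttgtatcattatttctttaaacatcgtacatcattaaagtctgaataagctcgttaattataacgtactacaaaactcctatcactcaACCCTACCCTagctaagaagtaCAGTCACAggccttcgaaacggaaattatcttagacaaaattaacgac
The box stands in either orientation: rpl2102 and rpl901 carry CAGTCACA, and rpl3002, rps3001 and rpl2101 carry its complement TGTGACTG. In rpl901 both boxes are present. The window of rpl3601 holds neither exact match, and neither do those of rpl1102, rps2601 and rps2802, the other 3 genes that passed the test, which are not printed.

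In wild type, Pds5-GFP at ribosomal protein genes was spread around the level of an ordinary gene. The median over the 114 genes was 0.013 ± 0.016 (SD of the medians of 2 arrays), against -0.018 for arm genes, and single genes ran from -0.83 to 1.49. A ratio of at least 1 was reached by 7 genes (6.14%), against 5.79% of all genes, and a ratio of at least 0.5 by 18 genes (15.8%), against 19.5%. Both shares were near those of all genes. Large-subunit genes had a median of 0.02 and small-subunit genes of 0.00. The wild-type arrays differed by a median of 0.07 per gene, and by 0.32 at most.

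The highest level was that of rpl3002, which encodes eL30 of the large subunit, with 1.42 and 1.55 on the wild-type arrays, 1.41 in swi6D and 1.67 in clr4D. The paralogues rpl1101 and rpl1102 both encode uL5, a protein that contacts 5S rRNA. For rpl1101 the wild-type values were 1.27 and 1.36, with 1.39 in swi6D and 1.50 in clr4D. For rpl1102 they were 1.31 and 1.30, with 0.97 in swi6D and 1.37 in clr4D. These genes stood high on all 4 Pds5-GFP arrays. Next came rps1901, which encodes eS19, at 1.30 ± 0.07 (SD, n = 2), and rps2502, which encodes eS25, at 1.11 ± 0.04. The lowest was rpl3601, which encodes eL36, with -0.81 and -0.86 in wild type and -0.65 in both mutants. Then followed rpl2501 at -0.76 ± 0.03, rpl3401 at -0.64 ± 0.15, rpl2702 at -0.63 ± 0.20 and rpl6 at -0.58 ± 0.04, all of the large subunit. The levels of rpl3401, rpl2702 and rpl6 differ by less than the spread of the wild-type pair at the first 2 of them, whereas the gap between the highest and lowest genes is many times that spread.

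**Figure D1:**
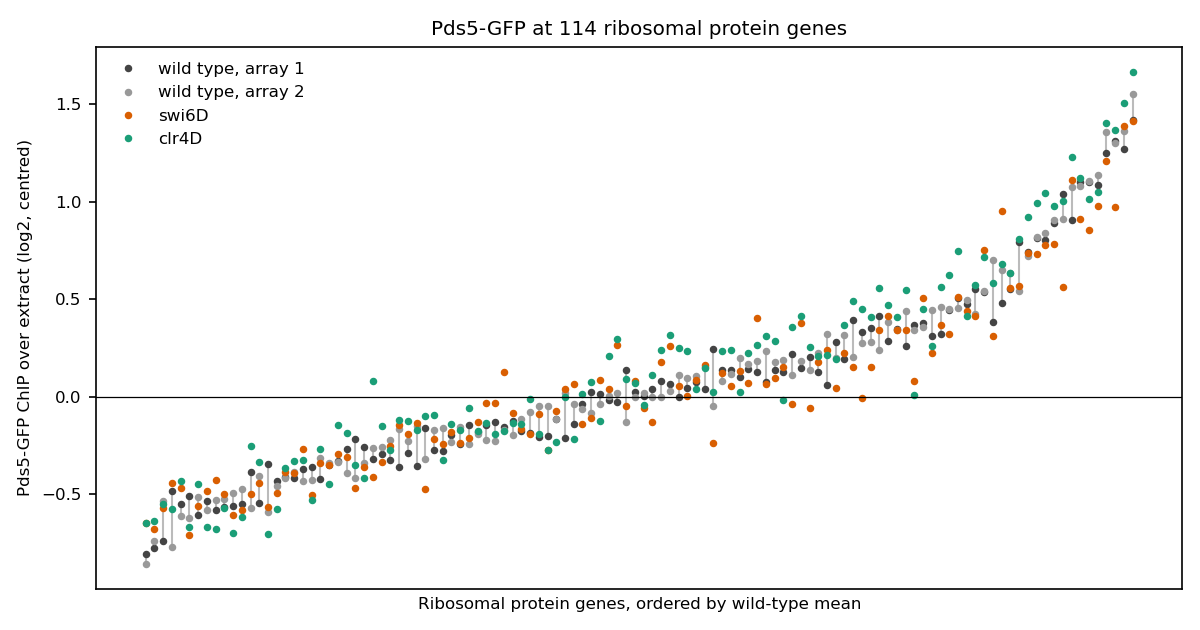
Pds5-GFP level (log2 ChIP over extract, centred on the array median, vertical axis) of the 114 ribosomal protein genes, ordered by the wild-type mean. Points are single arrays and grey lines join the 2 wild-type arrays. Wild-type means run from -0.83 (rpl3601) to 1.49 (rpl3002), and the mutant points follow the same course.

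The level followed where a gene lies. Across the 114 genes, the wild-type level correlated with the mean of the probes 1000 to 5000 bp away on both sides at r = 0.767 (0.713 across arm genes), a description across genes, which are not replicates and share each array. The 64 genes whose downstream neighbour is convergent, on the opposite strand, had a median of 0.133 ± 0.046 (mean and SD of 2 array medians). The 50 whose downstream neighbour is in tandem had a median of -0.162 ± 0.003. Among arm genes these medians, likewise averaged over the arrays, were 0.110 and -0.161, so the same split was seen at genes in general. The level rose along the gene, from -0.07 ± 0.00 (SD, n = 2) between 300 and 600 bp upstream to 0.15 ± 0.01 in the first 300 bp downstream and 0.17 ± 0.02 in the next 300 bp. In the first 300 bp upstream the ribosomal protein genes averaged 0.01 ± 0.00 and arm genes -0.06 ± 0.02. The level had little relation to H3K9me2 in wild type (r = 0.025), gene length (r = 0.005), extract signal (r = 0.051) or GC content (r = -0.213) across the 114 genes. These genes were shorter than arm genes (median 686 against 1797 bp), richer in GC (37.7% against 35.7%), dimmer in the extract channel (-0.30 against -0.10) and farther from the next gene downstream (263 against 112 bp). The part of these differences in the results was not tested. Genes with a HomolD match had a median Pds5-GFP level of 0.03 and those without had 0.01.

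**Figure D2:**
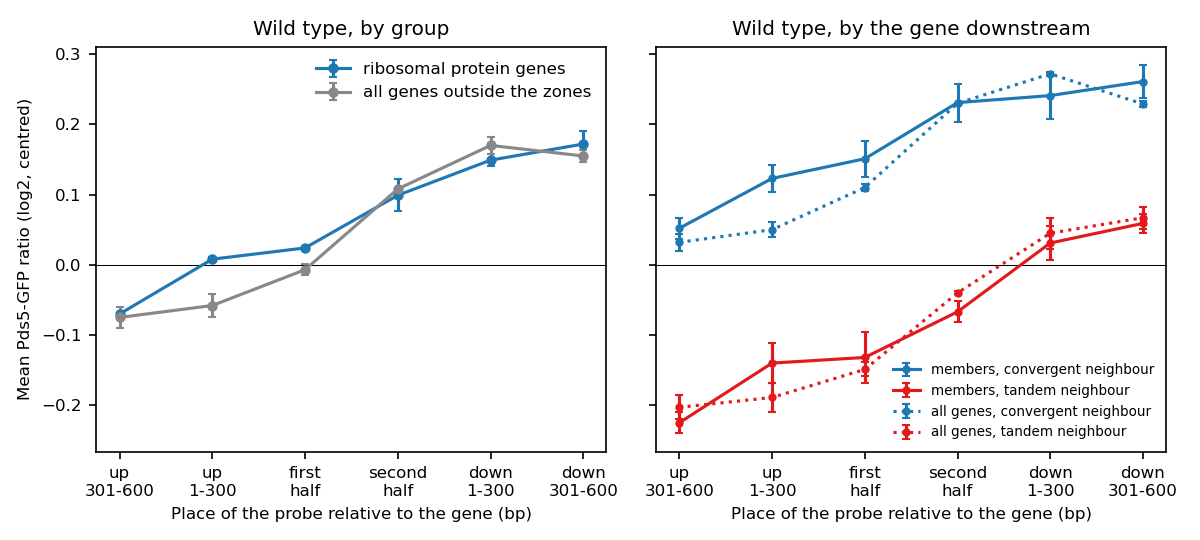
Mean wild-type Pds5-GFP ratio (log2, centred, vertical axis) by place of the probe relative to the gene (horizontal axis, bp upstream or downstream, or the first or second part of the gene), for the 114 ribosomal protein genes and for all genes that met the position limits. Error bars are the SD of 2 arrays. Both groups rise toward the downstream side, and in each the genes with a convergent neighbour lie above those with a tandem one.

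Paralogues resembled each other in part but often carried different Pds5-GFP levels. At least 60% identity of the coding sequence joined 85 of the genes into 44 pairs within 42 families, with a median identity of 87.5%. The median difference in wild-type level within a pair was 0.31, with 14 pairs under 0.2 and 3 at 1 or more. The least alike pair was rpl2301 and rpl2302, both encoding the same L23 protein, with -0.27 and -0.39 for the first and 0.91 and 1.07 for the second on the wild-type arrays. In swi6D they read -0.31 and 1.11, and in clr4D -0.19 and 1.23. The arrays thus gave the same order every time, though the coding sequences were 88.1% identical. Next were rps1901 and rps1902, at 1.30 and 0.15, and rps002 and rps001, which encode uS2, at 1.09 and 0.07. In the first and second of these 3 pairs the high gene had a convergent downstream neighbour and the low gene a tandem one, and in rps001 and rps002 it was the reverse. The most alike pairs were rpl1101 and rpl1102, 0.013 apart, rpl15 and rpl1502, 0.019 apart, and rps1201 and rps1202, 0.028 apart. Since many paralogues share probe sequence, likeness within a pair may be partly that of shared signal, whose size was not tested.

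In swi6D few ribosomal protein genes passed the test for a difference from wild type. Pds5-GFP fell at 4 of 114 genes (3.51%) and rose at 1 (0.877%) by limma with Benjamini-Hochberg adjustment over all 5108 genes, against 4.17% and 0.881% of all genes. The counts for arm genes were 1.70% lower and 0.928% higher. The median difference over the 114 genes was -0.01 (0.01 over all genes). Below both wild-type arrays lay 46 genes (40.4%), against 35.7% of all genes and 32.6% of arm genes. Above both lay 38 genes (33.3%), against 37.5% of all genes and 40.3% of arm genes. The wild-type pair supplied the only residual degree of freedom (1), and the fit assumes that the single mutant arrays vary like that pair. The fit drew each gene's spread toward a value shared by all genes (prior degrees of freedom 53.1). Standard errors therefore ran only from 0.0964 to 0.118 over the 5108 genes. So the p-values measure mainly the difference between the wild-type arrays pooled over genes, and little of a gene's own spread. With normexp background correction, which moved the median of all genes in swi6D to -0.18, 28 of the genes fell and 19 rose, and with the ChIP signal alone 0 did either.

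The 2 genes for eL21 both fell in swi6D. For rpl2101 the wild-type values were 1.04 and 0.91, with 0.56 in swi6D, a difference of -0.41 ± 0.10 (SE, adjusted p = 0.0036, limma). In clr4D it stood at 1.01, within the wild-type pair. For rpl2102 the wild-type values were 0.33 and 0.28, with -0.01 in swi6D (difference -0.31 ± 0.10, adjusted p = 0.045, limma) and 0.45 in clr4D. In each gene all 4 probes of the window lay below both wild-type arrays in swi6D, the 3 without a suffix included. The tested value is the mean of these probes, so here and at the genes below their agreement is no separate check. The window of rpl2102 shares probes with that of its neighbour rps403, whose difference in swi6D was -0.23. The coding sequences of the 2 eL21 genes are 91.3% identical, and 1 unsuffixed probe of rpl2101 also matched rpl2102 in 59 of 60 bases. After these came rpl1102, whose values are given above, with a difference of -0.33 ± 0.10 (adjusted p = 0.029, limma), again with all 4 probes below both wild-type arrays. Its paralogue rpl1101 differed by 0.07 (adjusted p = 0.82, limma). The last was rps2601, which encodes eS26, with 0.25 and -0.05 in wild type and -0.24 in swi6D (adjusted p = 0.041, limma). Its wild-type values lay further apart than the difference from the lower of them. Over 15 alternative settings rpl2101 passed in 14, rps2601 in 9, rpl1102 in 8 and rpl2102 in 6, so the calls at the last 3 depend on the processing.

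The gene that rose was rps3001, which encodes eS30, with 0.48 and 0.65 in wild type, 0.95 in swi6D and 0.68 in clr4D. The difference in swi6D was 0.39 ± 0.10 (adjusted p = 0.0082, limma), and its 3 probes all lay above both wild-type arrays. It passed in 12 of 15 alternatives, and with normexp the difference turned to -0.05. Its paralogue rps3002 read 0.55 and 0.63 in wild type and 0.56 in swi6D. The next largest positive differences, at rpl1502 (0.29), rps2202 (0.27), rps23 (0.25) and rpl2401 (0.21), had adjusted p-values of 0.071 to 0.26. The next negative one was rps2802 (-0.27, adjusted p = 0.097, limma).

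In clr4D, compared with the same 2 wild-type arrays as swi6D, 1 gene rose and 1 fell (0.877% each), against 1.29% and 3.07% of all genes. Among arm genes these shares were 1.28% and 0.729%. The gene that rose was rpl901, which encodes the large-subunit protein L9, with -0.32 and -0.27 in wild type, -0.41 in swi6D and 0.08 in clr4D. The difference in clr4D was 0.37 ± 0.10 (adjusted p = 0.011, limma), and all 4 probes lay above both wild-type arrays there, 2 of them suffixed with a second copy in rpl902. The gene that fell was rps2802, which encodes eS28, with 0.37 and 0.34 in wild type, 0.08 in swi6D and 0.01 in clr4D (difference -0.35 ± 0.10, adjusted p = 0.021, limma). Over 15 alternatives rpl901 passed in 12, and rps2802 passed in 4 and turned upward in 3. The largest differences that did not pass were rps2202 (0.30), rpl101 (0.27), rpl2402 (0.27) and rpl2401 (0.25) upward, and rpl1902 (-0.24), rps1801 (-0.17), rps1501 (-0.17) and rpl401 (-0.15) downward, with adjusted p-values from 0.061 to 0.51.

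The genes as a group lay slightly above wild type in clr4D. The median difference was 0.08, against 0.03 over all genes and over arm genes. Of the 114 genes, 83 were above 0, against 2949 of 5108 over all genes and 2754 of 4524 arm genes. Above both wild-type arrays stood 69 genes (60.5%), against 44.5% of all genes and 47.2% of arm genes. Below both stood 27 genes (23.7%), against 30.5% of all genes and 26.8% of arm genes. The median was 0.09 for large-subunit genes and 0.07 for small-subunit genes, and 0.11 for genes with HomolD against 0.02 for those without. With 1 clr4D array on its own slide, this shift carries no test.

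**Figure D3:**
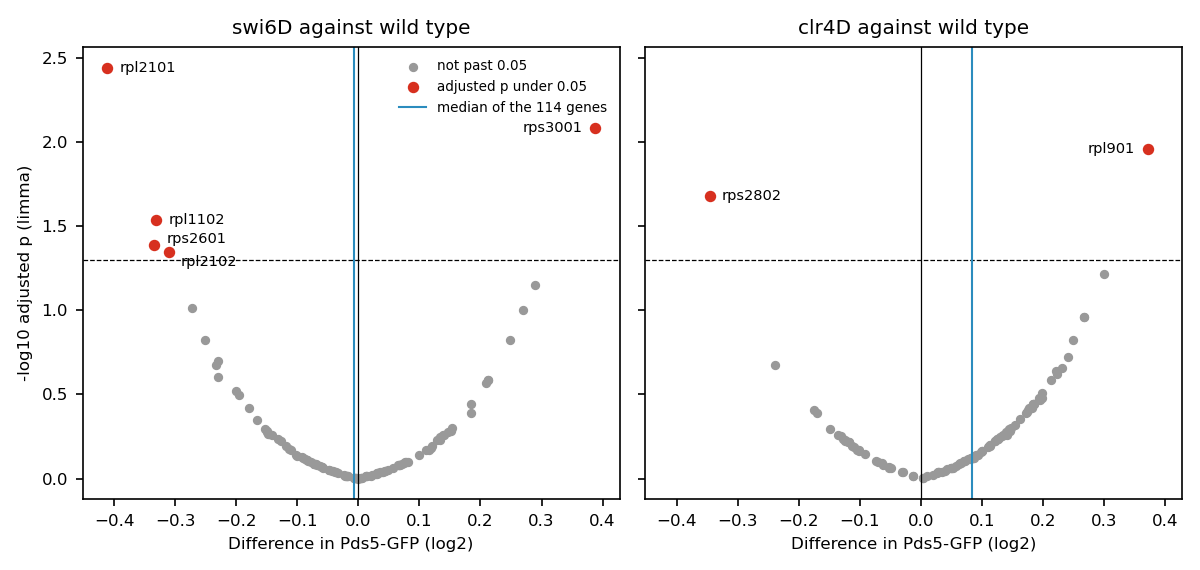
Difference in Pds5-GFP from the wild-type mean (log2, horizontal axis) against -log10 of the adjusted p (limma, vertical axis) for the 114 ribosomal protein genes in swi6D and clr4D, which share the wild-type arrays. The dashed line is an adjusted p of 0.05 and red points are the 5 and 2 genes past it. The blue line, the median, stands at -0.01 in swi6D and 0.08 in clr4D.

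The fall at rps2802 came from 1 of its 3 probes. The probe 134 bp before the gene start read 1.62 and 1.46 in wild type, 0.46 in swi6D and 0.18 in clr4D. The other 2 probes averaged -0.26 and -0.22 in wild type, -0.11 in swi6D and -0.08 in clr4D, so without the first probe the gene was slightly higher in clr4D. That probe was marked as an outlier on both H3K9me2 arrays and left out there. In the authors' deposited table, centred in the same way, it stood at 4.10 in wild type and 3.06 in pds5D. A like probe lay in rps1701, which encodes eS17. At 55 bp after the gene start it read 2.62 and 2.55 for Pds5-GFP in wild type, 1.30 in swi6D and 1.26 in clr4D, and 7.47 for H3K9me2 in wild type and 6.35 in pds5D. The other 4 probes of rps1701 averaged 0.72 and 0.74 for Pds5-GFP in wild type, 0.74 in swi6D and 0.95 in clr4D. So rps1701 was counted above among the genes with a wild-type Pds5-GFP ratio of at least 1 only through that single probe. The H3K9me2 of its other 4 probes averaged -0.13 in wild type and -0.11 in pds5D. Across the array, 19 of 41251 chromosome tiles lay at least 1 below the wild-type mean in both mutants while neither neighbouring tile did so by 0.5, and these 2 were among them. Of the 19, 13 had a wild-type H3K9me2 value, and all 13 read between 5.25 and 8.22.

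**Figure D4:**
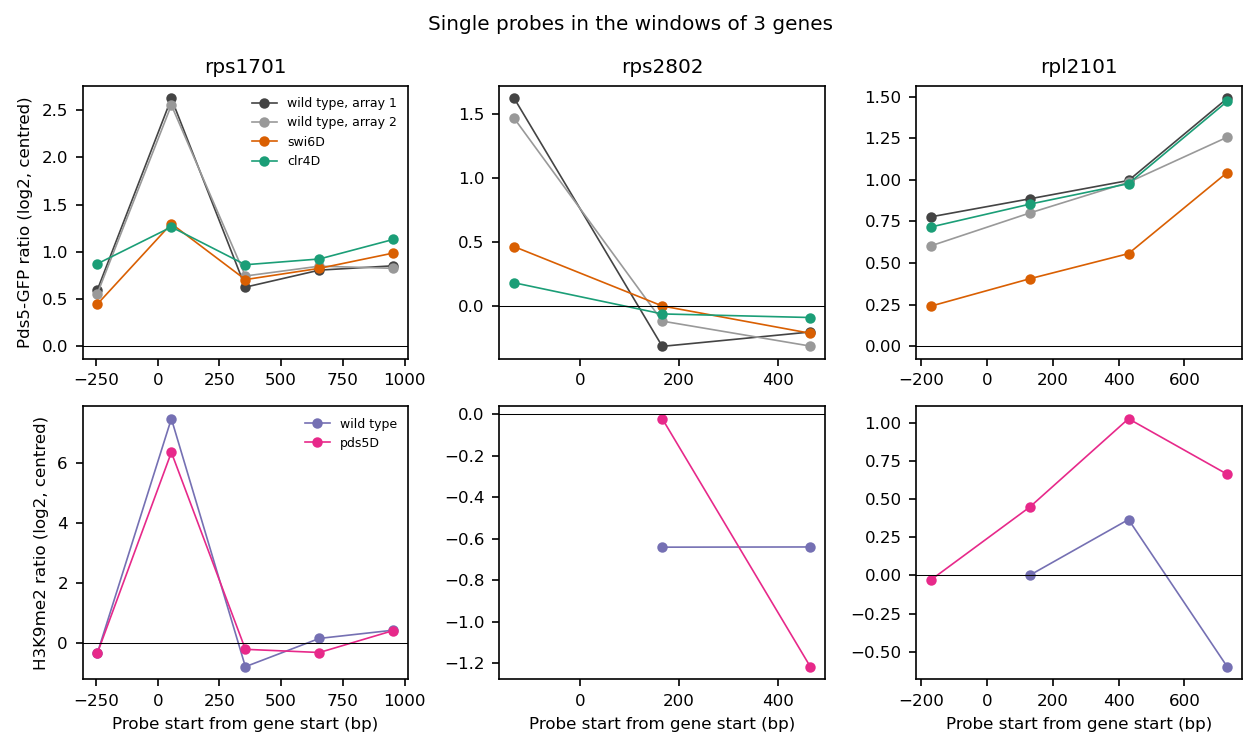
Log2 ratios of single probes (vertical axes, centred on the array median) by distance of the probe from the gene start (horizontal axis, bp) for rps1701, rps2802 and rpl2101, with Pds5-GFP above and H3K9me2 below. Points are single probes and colours are arrays. In rps1701 and rps2802 a single probe stands apart and falls in both mutants, and in rpl2101 all 4 probes are lower in swi6D.

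The wild-type H3K9me2 median over the 114 genes was -0.17, against -0.03 for arm genes. The sign of that median depends on the processing, since it was 0.07 with normexp and -0.89 with the ChIP signal alone. Below 0 lay 78 of the 114 genes, against 2425 of 4524 arm genes and 2469 of 5108 over all genes. Relative to the probes 1000 to 5000 bp away the 114 genes stood at a median of -0.11, against 0.01 for arm genes. In pds5D the median was -0.08, against -0.06 for arm genes, and 0.05 relative to those surrounding probes. Per gene, pds5D stood above wild type by a median of 0.12, against -0.03 for arm genes and -0.01 over all genes. It was higher at 76 of 114 genes, against 2027 of 4524 arm genes and 2441 of 5108 over all genes. The median difference was 0.10 in the large and 0.14 in the small subunit. The surrounding probes differed by a median of -0.03. Across the 114 genes, the difference of a gene correlated with that of its surrounding probes at r = 0.499 (0.516 across arm genes). On 11 genes the 2 arrays used different probes, since outlier spots were left out, and with shared probes alone the median difference was also 0.12. Each genotype has 1 array, so none of these differences has a replicate check or a test.

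A value lower by at least 0.5 in pds5D was seen at 3 genes (2.63%), against 3.82% of all genes and 3.51% of arm genes. A value higher by at least 0.5 was seen at 14 genes (12.3%), against 8.85% of all genes and 5.90% of arm genes. The largest was rpl3201, which encodes L32, with -0.22 in wild type and 1.06 in pds5D, and all 4 of its probes were higher. Then came rpl1102, from 0.66 to 1.78, and rpl4101, which encodes the very short L41 peptide, from -0.22 to 0.79. Next were rps3002, from 0.37 to 1.30, and rps902, from -0.22 to 0.70. Only rpl3201 and rpl1102 were higher by 1 or more with a ratio of at least 1 on an array. That is 1.75%, against 2.19% of all genes and 0.862% of arm genes. No gene was lower by that rule (0 of 114, against 0.157% of all genes and 0.0663% of arm genes). The largest negative differences were rps1201, which encodes eS12, from 0.05 to -0.84, rps2501, from 0.14 to -0.48, and rpl1901, from 0.54 to -0.05. After these came rpl1201, from -0.05 to -0.50, and rps401, from 0.69 to 0.24. Of the genes past the Pds5-GFP test in swi6D, rpl2101 read -0.08 and 0.53 for H3K9me2, rps2601 -0.18 and 0.36, rpl2102 -0.57 and -0.21, and rps3001 -0.67 and -0.26, in wild type and pds5D.

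A wild-type ratio of at least 1 was found at 3 genes (2.63%), against 7.42% of all genes and 1.95% of arm genes. They were rpl401, at 1.42 in wild type and 1.14 in pds5D, rps1701, at 1.39 and 1.18 through the single probe described above, and rpl1001, at 1.08 and 1.28. The first encodes uL4, which lines the tunnel through which the new peptide leaves the ribosome, and the last encodes L10. In pds5D, 8 genes (7.02%) reached 1, against 12.2% of all genes and 4.33% of arm genes. Both rpl401 and rpl1001 lay within 100 kb of the mating-type genes on chromosome II, as did rpl8, rps902, rps21, rps2402 and rpl1102. The median of these 7 genes was 0.68 in wild type and 1.14 in pds5D, and that of the 103 arm genes there was 0.76 and 1.28. The other 107 genes had medians of -0.22 in wild type and -0.11 in pds5D, with a median difference of 0.11. For rpl401, the 3 probes without a suffix read 1.70 to 2.03 in wild type, and the 3 suffixed probes, whose second copy lies in rpl402, read 0.58 to 1.30.

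**Figure D5:**
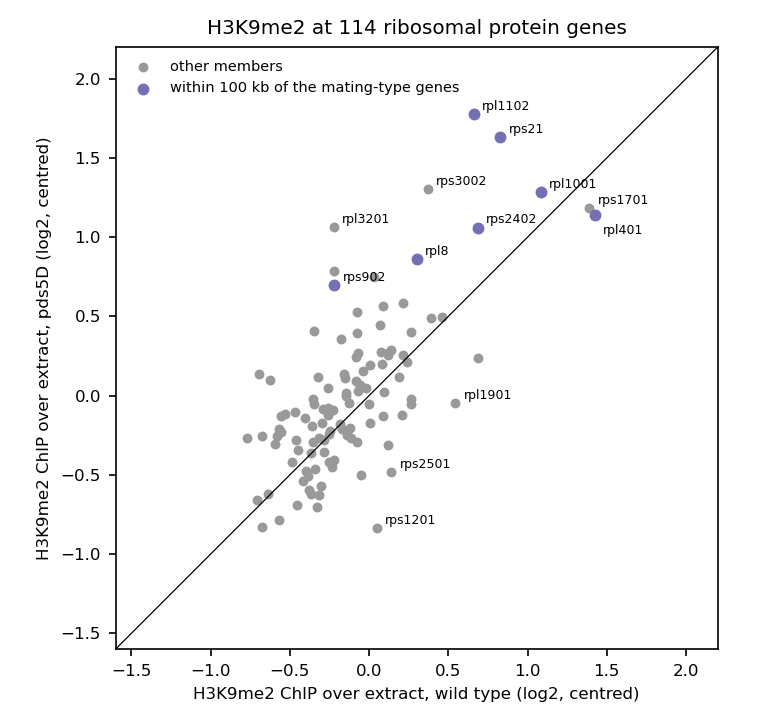
H3K9me2 level (log2 ChIP over extract, centred) in wild type (horizontal axis) and in pds5D (vertical axis) for the 114 ribosomal protein genes, 1 array each. The line marks equal values and purple points are the 7 genes within 100 kb of the mating-type genes. Most points lie above the line, with rpl3201 and rpl1102 farthest from it.

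The 17 excluded genes show what the position limits remove. The nearest gene inside the limit was rps2401, 152 kb from the centromere, and the nearest left out were rps1002 at 148 kb, rps1702 and rps1601 at 146 kb, rps1402 at 144 kb and rpl701 at 143 kb. For H3K9me2 these 5 read 0.42, 0.11, -0.02, 0.05 and 0.17 in wild type and 1.09, 1.02, 0.41, 0.34 and 0.84 in pds5D. Closest of all were rps402, 2.59 kb from the gene-free centromere region, with 2.48 and 2.32, and rpl1002, 6.82 kb away, with 2.52 and 2.38. Their Pds5-GFP levels were ordinary, with wild-type means of 0.14 and -0.06. Of the 17 genes only rps402 and rpl1002 had lower H3K9me2 in pds5D than in wild type. The next 2 genes were chosen after their values were seen. The largest H3K9me2 difference was at rps1502, 77.4 kb from the centromere, from 0.45 to 2.17. The largest Pds5-GFP difference was at rpl42, 28.7 kb away, with 0.16 and 0.38 in wild type and -0.08 in clr4D. Its difference was -0.35 (adjusted p = 0.023, limma).

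Other lists of genes of the translation machinery were counted over all positions, centromere-near genes included, beside 4.17% lower and 0.881% higher of all genes in swi6D and 3.07% and 1.29% in clr4D. Of 7 genes for the acidic stalk proteins of the 60S subunit, rpp202 fell in both mutants, with 0.88 and 0.90 in wild type, 0.21 in swi6D and 0.31 in clr4D (adjusted p = 2.3e-07 and 1e-05, limma). For H3K9me2 it stood at 3.23 in wild type and 2.37 in pds5D. By position rpp202 lies between rpl1001 and rpl401 on chromosome II, which are both within 100 kb of the mating-type genes. Of 4 genes that fuse ubiquitin to a ribosomal protein, ubi1 fell in swi6D, from 0.50 and 0.68 to -0.49 (adjusted p = 2.1e-13, limma), and stood at 0.80 in clr4D. A second, ubi3, rose in clr4D, from -0.09 and -0.03 to 0.32 (adjusted p = 0.0083, limma). Of 50 mitochondrial ribosomal protein genes, only mrpl12 passed, with a difference of -0.38 in clr4D (adjusted p = 0.011, limma). Of 43 measured ribosome biogenesis genes, nop12 and bms1 rose in swi6D and lsg1 fell in clr4D. Both mrpl12 and lsg1 lie near the centromere of chromosome III, and their H3K9me2 stood at 2.39 and 2.45 in wild type and 1.74 and 1.55 in pds5D. Of 17 translation factor genes, tif6 rose in swi6D and tef5 rose in clr4D. Of 11 regulators of ribosomal protein genes, 0 passed with limma in either mutant, and 1 had an unadjusted p under 0.05 in swi6D and 0 in clr4D. The median difference in clr4D was 0.09 for biogenesis genes, 0.15 for translation factors and 0.02 for mitochondrial ribosomal protein genes.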

How the data were processed

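The scans were read out by Agilent Feature Extraction, version 12.0.3.1 per the file headers. The processed Cy5 and Cy3 signals are intensity values, background-subtracted and dye-normalised before the authors deposited them, per the file headers, and the median spot and background signals are uncorrected intensity values. Per the file headers, LogRatio is on the log10 scale, with Cy5 divided by Cy3. The deposited value table holds log2 ratios whose direction and scale were settled against the scanner's ratio, within 0.01 at all but 1 to 8 positions per array. Flags for control and outlier spots were also used as deposited, and 0 columns of per-sample values were left unmapped. Column medians of the deposited table were -0.146 and -0.209 for H3K9me2 in wild type and pds5D, -0.087 and -0.0914 for wild-type Pds5-GFP, -0.072 for swi6D and -0.0544 for clr4D.

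Each array has 42968 spots, of which 41551 are not controls. Outlier spots (2 to 1306 per array) were left out, log2 processed Cy5 over Cy3 was centred on the array median, and no dim spot was removed. The H3K9me2 arrays had 1306 outlier spots in wild type and 111 in pds5D, and the Pds5-GFP arrays had 2 to 99. The sources used here do not give the build of the tile positions. A tile was placed on ASM294v3 by adding a shift: on chromosome I -750 bp up to tile 3781800 and then 4500, on II -750 up to 1632600 and then -1650, and on III 150 up to 1134600 and then -700. The centromere was taken as the largest gap between protein-coding genes of a chromosome. One mitochondrial rps gene was left out. Second copies of probe sites were sought with blastn 2.17.0.

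All genes were fitted by lmFit and eBayes (limma 3.58.1, R 4.3.3) over the 4 Pds5-GFP arrays in 3 groups, without covariates, and p-values were Benjamini-Hochberg adjusted over 5108 genes with a threshold of 0.05. The number of arrays limits the precision. H3K9me2, with 1 array per genotype, was described by size alone. Background shares are shares of all 5108 genes. Genes were named when they passed the threshold, were among the 5 highest or lowest in wild type or the 5 largest differences each way in a mutant, were the 3 highest for H3K9me2 in wild type, lay nearest the position limits or belonged to the 3 most or least alike paralogue pairs; single probes of rps1701, rps2802 and rpl401 were chosen after their values were seen. The genes, the lists and the rules were chosen with earlier results of these data known. Alternatives changed the background correction, normalisation, probes, window, placement, centring and arrays.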

Additional observations from a re-analysis of the deposited data

How the results depend on the processing

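No paired analysis was possible because only the wild-type Pds5-GFP group has 2 arrays and the labels give no numbers shared between groups. Without wild-type replicate 1 or 2, the swi6D median ran from -0.034 to 0.005, the clr4D median from 0.072 to 0.083 and the wild-type level from 0.002 to 0.025, with no test. Only without replicate 2 was the swi6D median above 0. Against the wild-type array on its own slide, swi6D had a median of -0.034, and clr4D shares a slide with no wild type. Genes lower in swi6D numbered 1 with loess, with equal deviation, with the deposited ratios and without suffixed probes, 2 with 500 bp flanks and with the median of probes, 0 with the ChIP signal alone and 28 with normexp. Genes higher in swi6D numbered 0 with the ChIP signal alone and with the deposited ratios, 2 with the median of probes and 19 with normexp. Normexp also moved the median of all genes in swi6D to -0.183 and that of the 114 genes to -0.114, so their median then lay above that of all genes. Genes lower in clr4D numbered 2 with the gene body alone, and 0 with loess, normexp, equal deviation, ChIP signal alone, deposited ratios, 500 bp flanks, median of probes, either 150 bp shift and, in an alternative chosen after seeing the data, without the 19 isolated tiles. Genes higher in clr4D numbered 2 with loess and without suffixed probes, 3 without dim spots and 0 with normexp, ChIP signal alone and the median of probes. The cause of these changes was not tested, except that rps2802 loses its deviating probe without isolated tiles.

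The wild-type Pds5-GFP median was 0.055 with loess, 0.027 with normexp, -0.264 with ChIP signal alone, -0.01 in the gene body, 0.033 without suffixed probes, -0.021 with the median of probes, 0.032 with tiles shifted by 150 bp and 0.029 centred on arm genes. The swi6D median was -0.051 with ChIP signal alone and -0.027 in the gene body. The clr4D median stayed above 0 under every alternative run, from 0.054 centred on arm genes to 0.117 with ChIP signal alone. The H3K9me2 median of wild type was 0.068 with normexp, the only value above 0, -0.196 with equal deviation, -0.887 with ChIP signal alone, -0.139 with the deposited ratios, -0.155 without dim spots, -0.117 in the gene body and -0.148 centred on arm genes. Chosen after seeing the data, it was -0.151 for the 119 genes over 140 kb from a centromere and -0.222 without the 7 genes near the mating-type genes. The pds5D minus wild-type median stayed above 0 throughout: 0.178 with loess, 0.058 with normexp, 0.054 with ChIP signal alone, 0.093 with 500 bp flanks, 0.101 without suffixed probes, 0.14 with the median of probes, 0.078 and 0.138 with tiles shifted up and down, and 0.151 centred on arm genes.

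Over 15 alternatives rpl2101 passed in 14 (limma adjusted p 0.00091 to 0.73), rps3001 in 12 (0.0014 to 0.8), rpl901 in 12 (0.0056 to 0.7), rps2601 in 9 (2.9e-05 to 0.8), rpl1102 in 8 (1.1e-08 to 0.77), rpl2102 in 6 (0.0013 to 0.64) and rps2802 in 4 (0.007 to 0.74). Signs turned for rps3001 with normexp (-0.053) and for rps2802 in the gene body (0.154), with the median of probes (0.098) and without isolated tiles (0.161).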

Other observations

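Of the 14 ribosomal protein genes whose H3K9me2 was higher by at least 0.5 in pds5D, 7 have not yet been given, and each rests on 1 array per genotype. They were chosen after their values were seen. On chromosome I, rpl3802 stood at -0.63 in wild type and 0.10 in pds5D, rps502 at 0.03 and 0.75, and rpl22 at -0.35 and 0.41. On chromosome III, rpl39 stood at -0.69 and 0.14. On chromosome II, rps27 stood at -0.77 and -0.27, rpl8 at 0.30 and 0.86, and rps21 at 0.83 and 1.63, the last 2 within 100 kb of the mating-type genes. Of these 7 genes, only rps21 reached a ratio of 1.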
